A study of Mus musculus with 12 samples.

Results

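The Sall family of mouse consists of 4 zinc finger transcription factor genes, Sall1, Sall2, Sall3 and Sall4, and this account gives the SOX2 binding regions around each of them in embryonic stem cells. The genes were chosen by family name, out of 21887 protein-coding genes, at a time when the position of 1 mitotic region near Sall1 was already known. A region was assigned to a gene when its midpoint lay within 200 kb of the gene's span in the RefSeq annotation. By this rule the family held 21 of 10351 asynchronous regions and 1 of 84 mitotic regions. Because the region lists entered the choice, the counts below are descriptions and carry no test.

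SALL proteins bind DNA through C2H2 zinc fingers and recruit the NuRD complex, a corepressor that joins nucleosome remodelling to histone deacetylation. In embryonic stem cells SALL4 is part of the same regulatory network as SOX2, OCT4 (encoded by Pou5f1) and NANOG. Sall1 is also expressed in these cells and is best known for its role in kidney development. Sall3 acts in the nervous system and the limb, and Sall2 is the most divergent member, with a role in closure of the embryonic eye fissure.

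ChIP-seq, the sequencing of DNA pulled down with an antibody, here against SOX2, was done on the mouse embryonic stem cell line E14 in 12 libraries: 3 ChIP and 3 input libraries from asynchronous cells, and the same from mitotic cells. All cells grew in 10% serum with the cytokine LIF and a pair of kinase inhibitors that favour the naive state, CHIR99021 (3 μM, against GSK3) and PD184352 (0.8 μM, against MEK). Only the mitotic cells were held overnight in nocodazole, which depolymerises microtubules. Only these were sorted, as fixed cells, for H3S10p, a histone mark of condensed chromosomes. The arrest and the sort therefore cannot be told apart from mitosis itself. Each condition is represented by 1 list called on its 3 replicates together, with a looser threshold for the mitotic list (q-value tag 0.05 against 0.01). The lists give positions and no heights, so no value here has a replicate error and the depth is unknown. The cells could be checked only through the lists. Sox2, Pou5f1 and Nanog, which define the pluripotent state, had 10, 7 and 7 asynchronous regions within 200 kb. The median protein-coding gene had 2. Among other genes of the same network, Esrrb had 8 and Tcl1 6, while Dppa2, Nr0b1 and Tbx3 had 2 each. None of these genes had a mitotic region within 200 kb, so the mitotic cells could not be checked in this way. Coordinates are on mm10, counted from 1.

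The 4 genes differed widely in how many asynchronous SOX2 regions surrounded them. Sall1 had 13, Sall4 had 5, Sall3 had 3 and Sall2 had none. The spans are alike in length, from 16.9 kb for Sall1 to 20.03 kb for Sall3, so the windows searched were nearly the same size, from 416.9 to 420.03 kb. The density within the window was 3.12 regions per 100 kb at Sall1, 1.19 at Sall4 and 0.714 at Sall3. Of all protein-coding genes, 79.8% had at least 1 asynchronous region within 200 kb, as 3 of the 4 Sall genes did. The median gene had 2 regions, the middle part of the distribution ran from 1 to 3 (interquartile range), and the 95th percentile was 6. At least 3 regions, the count of Sall3, were found at 38.1% of genes, and at least 5, the count of Sall4, at 14.2%. At least 13, the count of Sall1, were found at 0.0594%, or 13 genes with Sall1 included. Sall2 shared its count of 0 with 20.2% of genes.

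**Figure D1:**
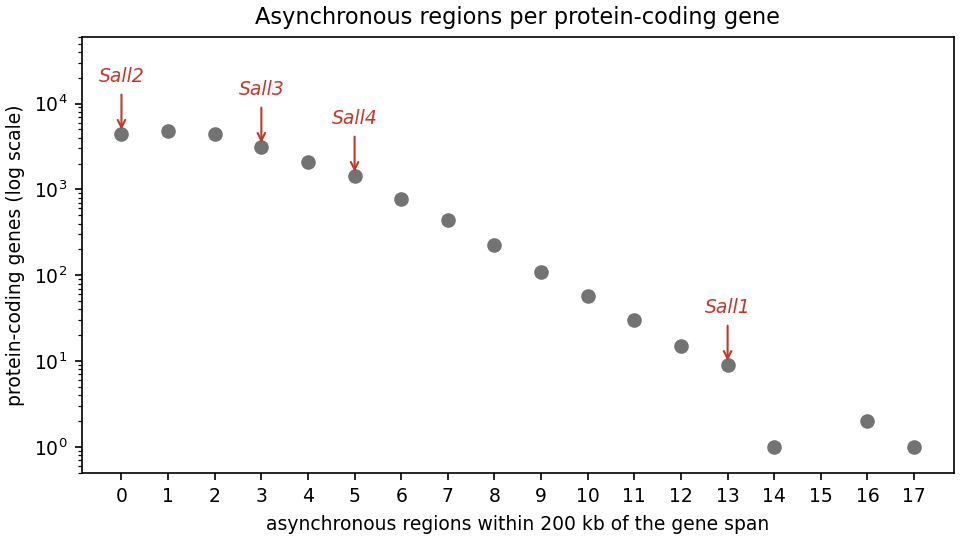
Number of protein-coding genes (log scale) against the number of asynchronous SOX2 regions within 200 kb of the gene span, with the 4 Sall genes marked by arrows. Sall2 is at 0, Sall3 at 3, Sall4 at 5 and Sall1 at 13, where the distribution holds few genes.

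A longer gene has a longer window, and most of the genes with as many regions as Sall1 were long. Of the other 12 genes with at least 13 regions, 10 were longer than 100 kb. Their median length was 449.8 kb, and the shortest was Gm829 with 40.1 kb. The highest count of any gene was 17, at Msi2, an RNA-binding protein gene of 378.9 kb. Sall1, with 16.9 kb, was the shortest gene of the 13, close to the 17.2 kb of the median protein-coding gene. None of the other 12 had a mitotic region within 200 kb. Only 2.43% of all protein-coding genes had one, so this absence says nothing particular to the 12.

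The family also differed in the genes that shared each window. Sall1 stood alone: no other protein-coding gene overlapped its window, and the nearest, the deubiquitinase gene Cyld, lay 275.3 kb away. The window of Sall2 held 13 other protein-coding genes. On one side were 6, among them Mettl3, the RNA methyltransferase of the m6A mark, 2.44 kb away, and the chromatin genes Tox4, Chd8 and Supt16. On the other side lay 7 olfactory receptor genes. Sall3 had 1 neighbour, the flippase gene Atp9b, 32.9 kb away. Sall4 had 3: another flippase gene, Atp9a, at 5.96 kb, Zfp64, a zinc finger gene, at 126.1 kb, and Nfatc2, a calcium-regulated transcription factor, at 146.7 kb.

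**Figure D2:**
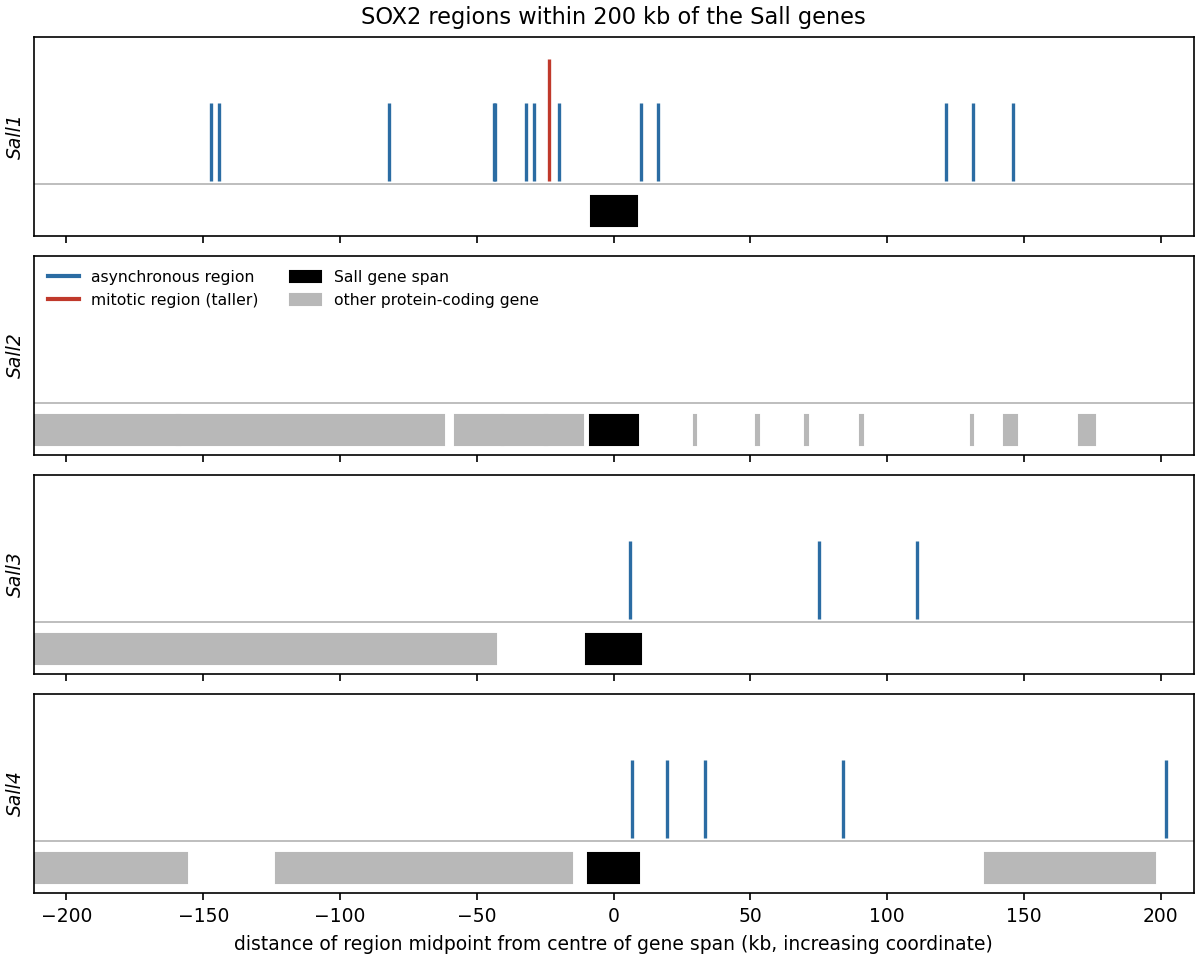
Positions of SOX2 region midpoints (vertical lines) and protein-coding gene spans (boxes) in kb from the centre of each Sall gene, in 4 rows for Sall1 to Sall4. Sall1 has 13 asynchronous lines and 1 taller mitotic line with no other gene box, Sall2 has no line, and the 3 and 5 lines of Sall3 and Sall4 all lie inside the gene or on its higher-coordinate side.

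Promoter sequence could be read for Sall1 and Sall2 from RefSeq (GRCm38.p6, the assembly behind mm10). The 250 bases before the outermost transcript start of each are shown. Sall1 and Sall2 were the only members with promoter sequence at hand, and they also have the most and the fewest regions of the family. The gene-proximal region of Sall1 lies just beyond its stretch. Both genes are on the minus strand and the sequences are written 5′ to 3′ toward the start, Sall1 at chr8:89044163-89044412 and Sall2 at chr14:52328671-52328920.
Sall1: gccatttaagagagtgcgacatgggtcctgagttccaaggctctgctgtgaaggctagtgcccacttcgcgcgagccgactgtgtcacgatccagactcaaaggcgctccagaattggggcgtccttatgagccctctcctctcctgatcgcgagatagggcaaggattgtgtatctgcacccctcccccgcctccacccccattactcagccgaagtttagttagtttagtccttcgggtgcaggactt
Sall2: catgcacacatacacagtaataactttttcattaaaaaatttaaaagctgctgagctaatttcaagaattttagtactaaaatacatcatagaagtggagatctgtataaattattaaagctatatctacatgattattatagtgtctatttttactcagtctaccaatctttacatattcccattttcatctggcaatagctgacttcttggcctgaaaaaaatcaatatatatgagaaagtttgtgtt
Capitals would mark a motif match, and there was none. The SOX core CATTGT, its variant CTTTGT and the POU stretch ATGCAAA, on both strands, were absent from these stretches and from the same 250 bases before the 2 further starts of Sall1 and the 1 further start of Sall2. Of 32817 promoter stretches of this length, 10.7% held the SOX core, 16.5% the variant and 4.13% the POU stretch, while the SOX core followed by any 1 base and the POU stretch was found in 2. The bases G and C made up 56.4% of the printed Sall1 stretch and 28.0% of that of Sall2, against a median of 52.4%. Before the 2 further starts of Sall1 they made up 74.4% and 78.4%. Before the 1 further start of Sall2 they made up 64.4%, so its low printed value does not hold for both starts. The absence of the motifs says nothing of sequence outside the stretches.

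No SOX2 region overlapped any of these 5 promoter stretches. The nearest asynchronous region to the outermost start of Sall1 began 1.21 kb upstream of it, and the starts of Sall2 were 249.7 and 262.04 kb from the nearest region.

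All 13 asynchronous regions of Sall1 lay outside the gene, whose span is chromosome 8, 89027242 to 89044162. On the downstream side were 8 and on the upstream side 5. Sall1 was the nearest protein-coding gene of 12 of them. The remaining one, the farthest on the downstream side at 88888602 to 88888802, was 136.8 kb from Cyld and 138.5 kb from Sall1, nearly midway. A further region at 88891304 to 88891678 was 2.50 kb from it, edge to edge, and a lone region followed at 88953211 to 88953658, 73.8 kb from the gene.

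The densest part of the locus lay just downstream of Sall1. Within 24.3 kb, from 88991774 to 89016028, were 5 asynchronous regions. The first pair, at 88991774 to 88992095 and 88992225 to 88992435, was separated by 0.130 kb. The next pair lay at 89003426 to 89003997, 572 bp wide, and at 89006465 to 89006865, 401 bp wide. The last of the 5, at 89015773 to 89016028, was 11.3 kb from the end of the gene. Over the whole list, 10 of 10351 asynchronous regions (0.0966%) opened a stretch of 25 kb with at least 5 regions, a length that was set after this group had been seen. At Sall4 the fullest such stretch held 2 regions, and at Sall3 it held 1.

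Upstream of Sall1, the region nearest to the gene was at 89045369 to 89045663, with its midpoint 1.35 kb from the outermost start. The next was at 89051663 to 89051845, 7.59 kb from the gene. Both lay inside Gm3134 (89041243 to 89071019), an annotated long noncoding RNA gene that overlaps that end of Sall1. A gap of 105 kb without a listed region followed; by the consecutive peak numbers, 2 peaks that are not in the list fall in it and were not analysed here. Beyond it came 3 more, at 89156826 to 89157397, 89167017 to 89167342 and 89181348 to 89181633. These were 113 to 137.3 kb from the gene. No other RefSeq gene of any kind lay under a region of Sall1.

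The regions of Sall1 were not of one size. Their widths ran from 183 to 572 bp with a median of 322 bp, and 8 of 13 were wider than the list's median of 289 bp. A pair of regions 572 bp wide, one in the dense downstream part and one 113 kb upstream, were at width percentile 95.8 of the asynchronous list. The region 7.59 kb upstream was 183 bp wide, the smallest width in the list, which 4.44% of the asynchronous regions had. The gene-proximal region was close to the list's middle, with 295 bp (percentile 51.9). Width is no measure of binding strength and grows with depth, so it was compared only within a list.

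Sall1 was the only Sall gene with a mitotic region within 200 kb, as 2.43% of all protein-coding genes had. At so low a share, the count of 0 at the other 3 genes says nothing particular to them. The mitotic region, at 89012135 to 89012249, was 15.1 kb downstream of the gene, within the dense stretch, and overlapped no asynchronous region. Its edges were 3.52 kb from the asynchronous region at 89015773, on the side of the gene, and 5.27 kb from the one ending at 89006865. The gap between these asynchronous neighbours was 8.91 kb. It was 115 bp wide, at percentile 38.1 of the mitotic list, whose smallest width is 105 bp and whose median is 125 bp. It was therefore not among the wider mitotic regions. Width does not rank it by binding strength, and no height was given.

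**Figure D3:**
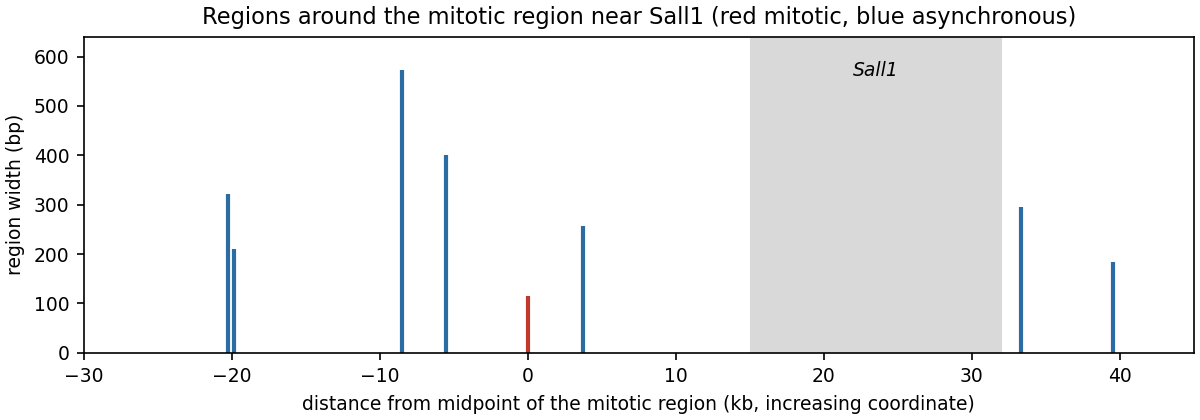
Widths in bp of the asynchronous (blue) and mitotic (red) regions against distance in kb from the midpoint of the mitotic region near Sall1, whose span is shaded. The mitotic line, 115 bp, stands between asynchronous lines of 401 and 256 bp and overlaps neither.

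Of the 84 mitotic regions, the one near Sall1 had the most asynchronous regions around it. It had 4 within 20 kb, 7 within 50 kb and 13 within 200 kb, where the median mitotic region had 0, 1 and 2. No other mitotic region reached any of these counts, and the next within 200 kb was the one inside Cd244a, an immune receptor gene, with 9. By distance it was less extreme. Among the 75 mitotic regions that overlapped no asynchronous region, its 3.52 kb was the value of rank 5 from the nearest, and the median was 36.6 kb. Regions nearer to an asynchronous one, at 1.74 to 3.33 kb, had as nearest gene Prl2c3, Sowahb, Rsph3b and Mthfd1l. The distances and the crowding are linked by construction, since a mitotic region in a crowded stretch has a near neighbour more easily.

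**Figure D4:**
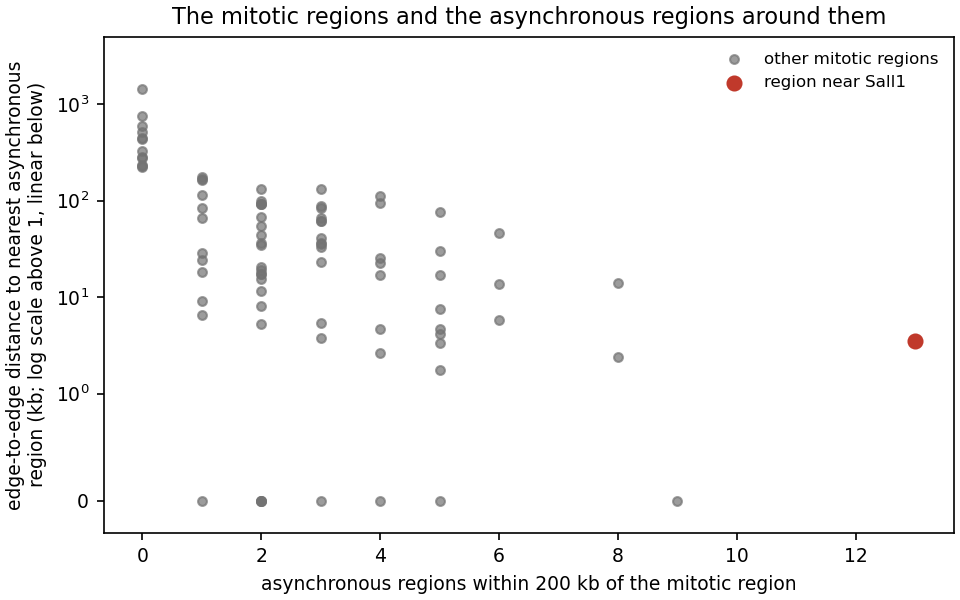
Edge-to-edge distance in kb from each of the 84 mitotic regions to the nearest asynchronous region (log scale above 1 kb, 0 for an overlap), against the number of asynchronous regions within 200 kb. The region near Sall1 is at 13 regions and 3.52 kb, the farthest to the right, while 9 regions lie at a distance of 0.

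Of 532 protein-coding genes with a mitotic region within 200 kb, Sall1 had the most asynchronous regions, and the median of these genes was 3. These genes drew on 84 mitotic regions and many shared one, so they are not separate units. The genes most like Sall1, by the number of asynchronous regions within 200 kb among 445 other genes whose mitotic region overlapped none, still had fewer. Shroom3, an actin regulator that shapes epithelia, and Septin11, a filament protein, had 10 each and shared a mitotic region at chromosome 5, 93042944 to 93043048, which was 2.41 kb from an asynchronous one. Sytl3, a vesicle trafficking gene, and Nav2, a cytoskeletal gene of neurons, had 9 each, with mitotic regions 2.62 and 279.5 kb from the nearest asynchronous region. Mthfd1l, an enzyme of mitochondrial folate metabolism, had 8 and a mitotic region inside the gene, 3.33 kb from an asynchronous one. Likeness was measured on counts from 1 list per condition only. All of these genes are longer than Sall1, so their windows were larger. The counts were also taken around the gene and not around the mitotic region. Around the mitotic region itself, 13 asynchronous regions lay within 200 kb at Sall1. There were 8 at Shroom3 and Septin11, 4 at Sytl3, 5 at Mthfd1l and 0 at Nav2.

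Sall4 had the second highest count of the family, with 5 asynchronous regions. Its span is chromosome 2, 168748332 to 168767201. One region, 346 bp wide, lay inside the gene at 168764441 to 168764786, 2.42 kb from the higher-coordinate end. The others all lay beyond that end, and none lay on the opposite side, where Atp9a adjoins. The region at 168777060 to 168777348 was 10.003 kb from the gene and that at 168791060 to 168791364 was 24.01 kb from it. Together with the one inside the gene they gave Sall4 3 regions within 50 kb, where 45.5% of protein-coding genes had at least 1 and the 95th percentile was 3.

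The 2 outer regions of Sall4 were nearer to another gene. The one at 168841481 to 168841863, 74.5 kb from Sall4, was 51.7 kb from Zfp64, a zinc finger gene. The one at 168959262 to 168959913, 192.4 kb from Sall4, was 4.001 kb from Zfp64, whose whole span lies between it and Sall4. This outermost region was also the widest of the family, with 652 bp, at percentile 98.0 of the asynchronous list. Of the 5 regions, 4 were wider than the list's median, and their median width was 346 bp. The nearest mitotic region was 1.72 Mb from the gene.

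Sall3, at chromosome 18, 80966989 to 80987021, had 3 asynchronous regions. One lay inside the gene at 80982752 to 80982934, 4.09 kb from its higher-coordinate end. The others were at 81051804 to 81052130, 64.9 kb beyond that end, and at 81087659 to 81087841, 100.7 kb beyond it. As at Sall4, no region lay on the lower-coordinate side, where the neighbour is Atp9b. Of these 3 regions, 2 had the smallest width of the list, 183 bp, and the other was 327 bp wide. The nearest mitotic region was 1.96 Mb away.

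Sall2, at chromosome 14, 52311177 to 52328670, had no region of either list within 200 kb. The nearest asynchronous region, at 52066372 to 52066627, was 244.7 kb away and lay 6.88 kb from Hnrnpc, which encodes an RNA-binding protein of the splicing machinery. The only mitotic region listed on the chromosome was 38.01 Mb away. With 13 neighbouring genes, the window of Sall2 was the most gene-rich of the family. It was also the only one without a SOX2 region, but a relation between gene number and regions was not tested.

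The 200 kb limit separated the regions as follows. The farthest regions inside it were 192.4 kb from Sall4, 138.5 kb from Sall1 and 100.7 kb from Sall3. The nearest regions outside it were 210.4 kb from Sall3, 227.7 kb from Sall1, 244.7 kb from Sall2 and 259.1 kb from Sall4. The order of the genes with regions changed with the window. Sall1 was highest at 50 kb with 7 regions, at 100 kb with 8 and at 500 kb with 16. Sall4 was ahead of Sall3 at 50 kb (3 against 1) and at 100 kb (4 against 2), but Sall3 had 8 and Sall4 6 at 500 kb, where Sall2 had 1. The median protein-coding gene had 0, 1 and 5 regions at these windows and the 95th percentile was 3, 4 and 11, so only Sall1 was above it at each of them. Neighbours in this order cannot be told apart beyond a replicate spread, since none was given.

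**Figure D5:**
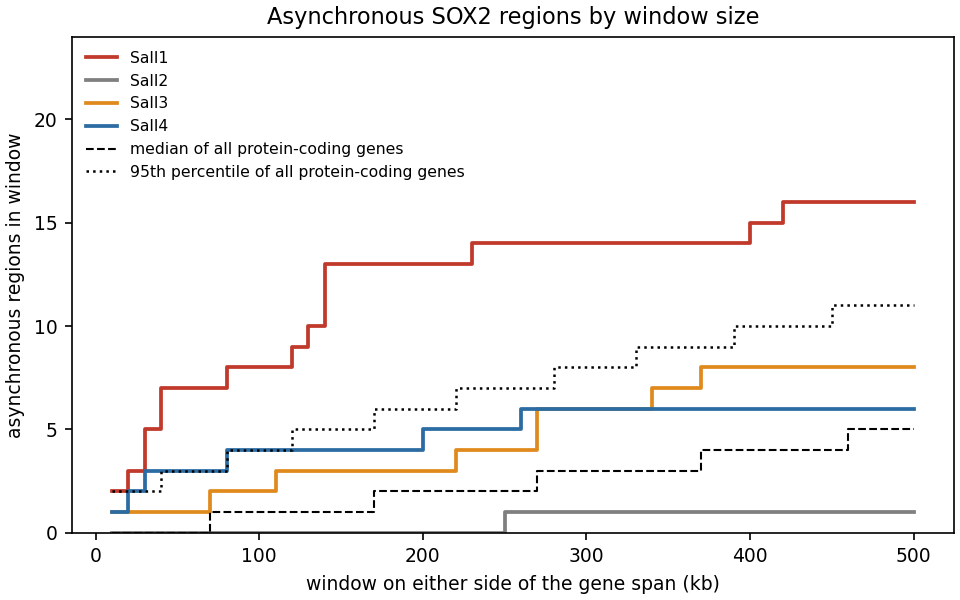
Number of asynchronous regions against the window in kb on either side of the gene span, for the 4 Sall genes (coloured steps) and for the median and 95th percentile of all protein-coding genes (dashed and dotted). Sall1 reaches 13 at 200 kb and 16 at 500 kb, and the line of Sall3 crosses that of Sall4 between them.

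The genes of the NuRD complex and of the stem cell network were counted in the same way. Of 14 NuRD genes, 14 had at least 1 asynchronous region within 200 kb, where 79.8% of all protein-coding genes did, with a median of 3.5 regions per gene against 2 for all protein-coding genes. Most NuRD genes are longer than the median protein-coding gene, which widens their windows, and some of these windows overlap. The most were 7 at Chd5, a remodelling ATPase of neurons, and 5 each at the ATPase gene Chd3, at Mta3, a scaffold subunit, and at the histone chaperone gene Rbbp4. Chd4, the main remodelling ATPase of NuRD in stem cells, had 3. A single gene of this list, Mbd3, had a mitotic region within 200 kb, where 2.43% of all protein-coding genes had one. It lay at chromosome 10, 80553489 to 80553657, was 154.04 kb from Mbd3, had Rexo1 as its nearest gene and was 167.4 kb from the nearest asynchronous region, so it differed in setting from the one at Sall1.

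Other zinc finger genes of stem cells had fewer asynchronous regions than Sall1, as nearly all protein-coding genes had. Of 14, 12 had at least 1 within 200 kb (85.7%, where all genes gave 79.8%), with a median of 4.5. Zfp281, a regulator of the exit from naive pluripotency, had 7, and Klf5, Prdm14, which restrains DNA methylation in naive cells, and Zfp296 had 6 each. Ctcf, the insulator protein gene, and Zfp143 had 0. Of 8 genes of the SALL4 network, 8 had at least 1, against the same 79.8%, with a median of 6.5. Sox2 had 10, Esrrb, an orphan nuclear receptor gene, had 8 and Nanog and Pou5f1 had 7 each, so that none of the 8 reached the 13 of Sall1. Only 0.0594% of all protein-coding genes reached 13, so a lower count says nothing particular to the genes of these lists. No gene of these 2 lists had a mitotic region within 200 kb, but only 2.43% of all genes had one, so that a count of 0 in lists of 14 and 8 genes says nothing particular to them. These counts are read beside those of all genes, with no test.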

How the data were processed

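SOX2 ChIP and input DNA were sequenced from asynchronous and mitotic E14 cells, 3 libraries each. Bowtie2 version 2.2.1, MACS2 and mm10 were used per the submitters' processing notes; the MACS2 version is not given in the sources used here. File names state that each list was called on 3 replicates together, without blacklisted regions. The deposited values are start and end positions in bp (unit: other), without score or read count, so depth and replicate spread are unknown.

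Starts were converted to positions counted from 1. Entries with the same coordinates were merged, 181 in the asynchronous and 0 in the mitotic list. Genes came from RefSeq GRCm38.p6, on 21 chromosomes. Midpoint-to-span distances, edge-to-edge distances and counts were computed with Python 3.11.15, numpy 2.4.6 and pandas 2.3.3, and the counting was tested on simulated data. The promoter table held 2 of the 4 members. The 50 bases after each start were not used. The comparison of SALL proteins was not run.

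Named genes were the members, the nearest or intervening genes of their regions, up to 4 genes per list with the most regions, any with a mitotic region, and the 5 genes most like Sall1. The genes of the Sall1 count, Gm3134, Chd4, Ctcf, Zfp143, the neighbours in the windows and the genes at nearer mitotic regions were added after their values were seen. Members and lists were chosen with earlier results of these data known. No tests were made. Alternatives varied the window, distance measure, gene assignment, width limit, merging and overlap.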

Additional observations from a re-analysis of the deposited data

How the results depend on the processing

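Of 72 recomputed values over 14 results, 54 stayed within 1.5 times (counts), within the main value's exact 95% interval (shares) or equal (distances). Asynchronous counts moved mainly with the window. Sall1 fell from 13 to 7 at 50 kb and 8 at 100 kb, Sall3 went from 3 to 1 at 50 kb and 8 at 500 kb, Sall4 fell from 5 to 3 at 50 kb, and Sall2 rose from 0 to 1 at 500 kb. With regions wider than the list's median only, Sall1 had 8, Sall3 had 1 and the mitotic count of Sall1 was 0, by construction. When a region counted for its nearest gene only, Sall4 had 3. The distance at Sall1 was 3.52 kb edge to edge, 3.71 kb between midpoints and 5.27 kb to the nearest wider asynchronous region. The share of protein-coding genes with an asynchronous region was 45.5% at 50 kb, 62.4% at 100 kb and 92.3% at 500 kb, and with a mitotic region 0.836%, 1.41% and 5.45%. Merging, edge distances, joining and the overlap rule moved no value beyond these limits.

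No paired analysis was possible because each list pools its 3 replicates, and for the same reason no replicate could be left out. Depth is unknown. Of 16 consecutive peak numbers around Sall1, 3 were not in the list and were not analysed here, 2 of them in the 105 kb gap upstream of the gene and 1 in the 38.1 kb gap downstream of it.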

Other observations

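Beyond 200 kb, the Sall3 locus gained the most asynchronous regions of the family. Between 200 and 500 kb from its span were 5, against 3 for Sall1 and 1 each for Sall2 and Sall4. From the 200 kb to the 500 kb window, the median of all protein-coding genes rose from 2 to 5 and the 95th percentile from 6 to 11. The gain at Sall3 is therefore not read as particular to it. On the lower-coordinate side, 3 lay 262.8 to 362.4 kb away, and their nearest gene was Nfatc1, a calcium-regulated transcription factor. On the other side, 2 lay 210.4 and 265.1 kb away and still had Sall3 as their nearest protein-coding gene. The 1 further region of Sall4, at 259.1 kb, lay inside Nfatc2, a relative of Nfatc1. Sall1 was the nearest protein-coding gene of 2 more regions, at 227.7 and 410.3 kb on its upstream side, and the third, at 399.1 kb on the other side, lay inside Snx20.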
